A study of Mus musculus with 16 samples.

Results

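The 10 genes described here are markers of injured kidney tubule, led by Havcr1. They are Havcr1, Lcn2, Spp1, Clu, Vcam1, Krt20, Sox9, Cd44, Krt8 and Krt18, chosen by symbol from knowledge of the tubule and not by a threshold on these values. Earlier results of these data were known when they and the lists below were chosen, so their counts and medians are no independent check. A probeset was taken where it was annotated to exactly 1 symbol. Of the 10 genes, 9 were measured, each by 1 probeset, among 30142 genes in all, and Spp1 (osteopontin) was not analysed here. The RNA was that of glomeruli extracted from the kidney cortex of 16 female mice, with 1 array per mouse. Of these, 8 were B6.ER⍺KO mice (KO), which lack oestrogen receptor alpha, and 8 were C57Bl/6 wild-type mice (WT). Each genotype gave 4 groups of 2 mice, untreated or studied at 18 hours, 6 days or 2 weeks from an injection of sheep nephrotoxic serum into the peritoneum, at 8 ul per g. The serum holds antibodies to the glomerular basement membrane and starts an immune glomerulonephritis, and the series sets this disease beside oestrogen receptor signalling and lipid metabolism. The labels used here name neither the allele behind the knockout nor the ages of the mice.

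The proximal tubule reabsorbs most of what the glomerulus filters. When its cells are damaged they lose transporters, spread over bare stretches of the tubule, divide, and switch on a set of genes that healthy cells keep low. Havcr1 encodes KIM-1, a surface receptor by which injured tubule cells take up dead cells. Lcn2 encodes NGAL, a secreted protein that binds iron carriers of bacteria, and Clu encodes clusterin, a secreted chaperone. Vcam1 and Cd44 are adhesion molecules, Sox9 is a transcription factor of tubule repair, and Krt8, Krt18 and Krt20 are keratins, the filament proteins of epithelia. Several of these genes are also expressed outside the tubule, Vcam1 in endothelium and parietal cells and Cd44 in leukocytes and activated parietal cells, so in an extract of whole tissue they do not name 1 cell type. In such an extract, fewer cells of a type and less RNA per cell cannot be told apart. Tubule RNA was present here beside that of glomeruli. Untreated arrays had proximal tubule marker means of 15.19 to 15.71 and podocyte marker means of 9.24 to 10.61. The brightness of different genes does not give the share of each cell type.

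Promoter windows of 4 members that return below are shown here. They run from 250 bases before to 50 after a transcription start in RefSeq (GRCm38.p6) and are printed in the gene's own direction. For Havcr1 the window shown is the most downstream of its 3. It starts at 46750918, where the first starts at 46739973, so it is not the sequence upstream of the gene's first start. Capitals mark matches to the motifs searched.
Havcr1, chr11:46750918-46751217, plus strand: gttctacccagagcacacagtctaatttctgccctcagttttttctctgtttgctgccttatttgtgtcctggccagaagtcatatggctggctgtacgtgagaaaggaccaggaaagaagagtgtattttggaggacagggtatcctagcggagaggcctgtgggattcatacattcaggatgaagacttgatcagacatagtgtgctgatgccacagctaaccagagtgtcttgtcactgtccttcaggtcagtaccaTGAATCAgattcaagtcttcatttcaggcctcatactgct
Lcn2, chr2:32387690-32387989, minus strand: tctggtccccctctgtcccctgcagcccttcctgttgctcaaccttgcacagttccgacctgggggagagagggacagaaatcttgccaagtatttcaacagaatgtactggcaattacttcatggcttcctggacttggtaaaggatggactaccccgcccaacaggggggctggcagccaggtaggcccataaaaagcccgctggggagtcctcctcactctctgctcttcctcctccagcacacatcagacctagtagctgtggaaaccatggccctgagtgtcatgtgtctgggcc
Krt20, chr11:99438104-99438403, minus strand: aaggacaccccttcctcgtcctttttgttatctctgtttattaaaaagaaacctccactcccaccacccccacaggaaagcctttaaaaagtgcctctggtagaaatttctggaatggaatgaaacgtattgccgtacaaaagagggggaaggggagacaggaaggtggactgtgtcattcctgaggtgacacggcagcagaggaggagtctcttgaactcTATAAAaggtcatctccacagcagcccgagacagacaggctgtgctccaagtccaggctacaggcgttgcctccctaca
Cd44, chr2:102901616-102901915, minus strand: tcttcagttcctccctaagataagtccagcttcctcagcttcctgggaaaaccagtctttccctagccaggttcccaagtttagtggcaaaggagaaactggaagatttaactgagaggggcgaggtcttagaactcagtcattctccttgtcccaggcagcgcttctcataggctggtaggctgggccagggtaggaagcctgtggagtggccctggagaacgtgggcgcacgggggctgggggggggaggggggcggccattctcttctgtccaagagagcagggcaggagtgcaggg
The table held 10 windows for 7 of the 10 members, with 3 for Havcr1 and 2 for Spp1. The AP-1 letters TGANTCA stood in 1 of the 10 windows, that of Havcr1 printed above, 10 bases after the start, and in 7.81% of 32851 promoters of the same length. This match lies downstream of all 3 Havcr1 starts, not in sequence before a start, and the other Havcr1 windows held none. The SOX letters ACAAAG stood in 3 windows, 2 of Spp1 and 1 of Krt18, and in 18.7% of all promoters. The TATA letters TATAAA stood in 3, of Spp1, Krt20 and Krt8, and in 13.6% of all promoters. Counted from the start, they lay at -211 in Spp1, at -29 in Krt20, and at -3 and -1 in Krt8. The STAT letters TTCCNGGAA and the NF-kB motif stood in none of the 10 windows, and in 1.15% and 0.41% of all promoters. Both strands were searched, the TATA letters were added after the windows had been read, and a match in letters is not a bound site.

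Some arrays stood apart from their labels or from their group. Esr1, which encodes the receptor, was not lower in KO arrays, at 7.44 ± 0.18 against 6.90 ± 0.35 in WT arrays (SD, n = 8 each), a difference of 0.55 ± 0.11 with a limma adjusted p of 0.218. Where the probeset lies relative to the deleted part is not given, so this does not check the labels. Abcc3, an exporter of organic anions, lay between 5.92 and 6.69 in the KO arrays other than those at 18 hours, against 8.52 to 13.86 in the WT arrays other than those at 18 hours. At 18 hours the second array labelled KO stood at 12.93 and the second labelled WT at 6.25, each within the other genotype's range. The labels were kept, and values without these 2 arrays stand beside the 2-week calls after serum, the list counts, the genotype comparisons and the correlations with Havcr1. At 2 weeks the first KO array lay below the second in all 9 members. The array medians lay between 5.57 and 5.90. For 152 genes the mean exceeded what a plain log2 of a 16-bit scanner reading can reach, so some unstated transformation was applied, and differences are in deposited log2 units, not folds of RNA.

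Havcr1 was the member with the widest range. In KO mice it stood at 7.95 and 7.28 in untreated arrays, 6.81 and 6.18 at 18 hours, 10.31 and 12.39 at 6 days, and 7.17 and 12.77 at 2 weeks. In WT mice it stood at 6.03 and 6.06 in untreated arrays, 5.68 and 6.78 at 18 hours, 6.83 and 9.19 at 6 days, and 13.23 and 12.56 at 2 weeks. All arrays at 6 days and 2 weeks lay above every untreated array of their own genotype, except the first KO array at 2 weeks, which lay below both. Over both genotypes, 2 weeks minus untreated was 4.60 ± 1.0 (SE, 4 arrays against 4), with a limma adjusted p of 0.0241, so Havcr1 rose. At 6 days the difference was 2.85 ± 1.0 with a limma adjusted p of 0.233, and at 18 hours it was -0.47 ± 1.0 with an adjusted p of 1. The 2-week call was lost without any 1 of the 4 untreated arrays, at adjusted p of 0.0660 and 0.0854 without the first or second WT array and 0.0649 and 0.0979 without the first or second KO array. The difference itself stayed between 3.20 and 6.00 over the 16 repeats that leave out 1 array each. Without the 2 arrays that stood apart at 18 hours, it was again 4.60, with an adjusted p of 0.0502.

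**Figure D1:**
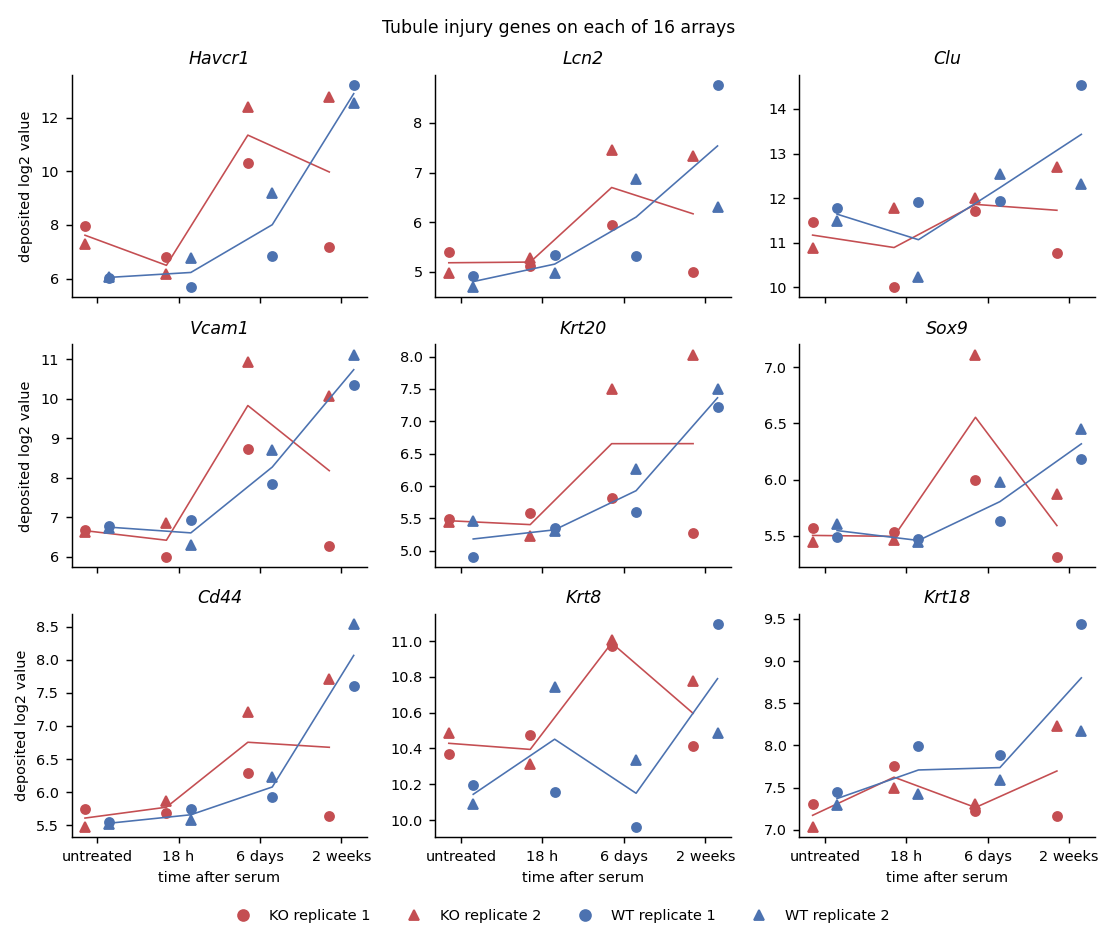
Deposited log2 value of each of the 9 measured members on every array, 1 panel a gene, with time after serum along the horizontal axis and KO drawn left of WT at each time. Each point is 1 mouse, lines join the means of 2 mice, and scales differ between panels. The first KO mouse at 2 weeks stands at 7.17 for Havcr1 while the other 3 arrays of that time stand between 12.56 and 13.23.

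Of the secreted markers, Lcn2 had its highest values at 6 days and 2 weeks. In KO mice it stood at 5.39 and 4.97 in untreated arrays, 5.12 and 5.27 at 18 hours, 5.94 and 7.46 at 6 days, and 5.0 and 7.34 at 2 weeks. In WT mice it stood at 4.92 and 4.69 in untreated arrays, 5.34 and 4.97 at 18 hours, 5.33 and 6.88 at 6 days, and 8.77 and 6.30 at 2 weeks. Replicates of a group differed by over 1 unit in each genotype at 6 days and at 2 weeks. The pooled difference at 2 weeks was 1.86 ± 0.62 with a limma adjusted p of 0.0786, and at 6 days it was 1.41 ± 0.62 with an adjusted p of 0.367. Clu stood at 11.46 and 10.89 in KO and 11.79 and 11.50 in WT arrays before serum. At 6 days it stood at 11.71 and 12.01 in KO and 11.93 and 12.54 in WT arrays, and at 2 weeks at 10.76 and 12.70 in KO and 14.54 and 12.32 in WT arrays, where the highest of all 16 arrays was the first WT array. Its pooled difference at 2 weeks was 1.17 ± 0.60 with a limma adjusted p of 0.210. At 18 hours the values of Clu crossed between the labels, at 10.01 and 11.78 in KO arrays and 11.92 and 10.22 in WT arrays, so that the arrays low in Abcc3 were also low in Clu.

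Both adhesion molecules rose at 2 weeks. Vcam1 encodes the endothelial and epithelial ligand of the integrin VLA-4. In KO mice it stood at 6.68 and 6.64 in untreated arrays, 5.99 and 6.84 at 18 hours, 8.72 and 10.94 at 6 days, and 6.28 and 10.08 at 2 weeks. In WT mice it stood at 6.77 and 6.72 in untreated arrays, 6.92 and 6.28 at 18 hours, 7.83 and 8.71 at 6 days, and 10.36 and 11.13 at 2 weeks. All 4 arrays at 6 days lay above all 4 untreated ones, and so did 3 of the 4 at 2 weeks. Vcam1 rose at 2 weeks, by 2.76 ± 0.71 over both genotypes with a limma adjusted p of 0.0376, whereas 6 days minus untreated was 2.35 ± 0.71 with an adjusted p of 0.160. The call held in 5 of the 16 repeats that leave out 1 array. Those 5 leave out either KO array at 6 days, either KO array at 2 weeks, or the first WT array at 2 weeks, and in the other 11 the adjusted p lay between 0.0515 and 0.121. Without the second KO array at 2 weeks the difference was 1.81, and without the first it was 3.71. Without both arrays that stood apart at 18 hours it was 2.76, with an adjusted p of 0.0702.

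Cd44 encodes the receptor for hyaluronan, a sugar polymer of the matrix, and also binds osteopontin. In KO mice it stood at 5.75 and 5.48 in untreated arrays, 5.69 and 5.87 at 18 hours, 6.30 and 7.21 at 6 days, and 5.65 and 7.71 at 2 weeks. In WT mice it stood at 5.55 and 5.52 in untreated arrays, 5.75 and 5.58 at 18 hours, 5.94 and 6.23 at 6 days, and 7.6 and 8.53 at 2 weeks. The first KO array at 2 weeks lay between the untreated values, and the other 3 arrays at 2 weeks lay above them all. Over both genotypes Cd44 rose at 2 weeks by 1.80 ± 0.38 with a limma adjusted p of 0.0229, and 6 days minus untreated was 0.84 ± 0.38 with an adjusted p of 0.382. The 2-week call was lost without the first or second WT untreated array (adjusted p of 0.0618 and 0.0818), the first or second KO untreated array (0.0628 and 0.0966) or the second WT array at 2 weeks (0.0583). The difference over all 16 repeats ran from 1.28 to 2.32. Without both arrays that stood apart at 18 hours it was 1.80, with an adjusted p of 0.0482.

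Of the keratins, Krt20, which marks surface cells of the gut and urothelium and appears in injured tubule, had the largest difference at 2 weeks. In KO mice it stood at 5.49 and 5.44 in untreated arrays, 5.58 and 5.23 at 18 hours, 5.81 and 7.50 at 6 days, and 5.28 and 8.03 at 2 weeks. In WT mice it stood at 4.90 and 5.46 in untreated arrays, 5.35 and 5.30 at 18 hours, 5.6 and 6.26 at 6 days, and 7.22 and 7.50 at 2 weeks. All 4 arrays at 6 days lay above all untreated ones, while the pooled 2-week difference of 1.69 ± 0.51 missed the threshold, with a limma adjusted p of 0.0609. Krt8 and Krt18 form filaments as a pair in simple epithelia, yet their values followed each other weakly, with Pearson r of 0.29 over the 16 arrays. In KO mice at 6 days Krt8 stood at 10.98 and 11, against 10.37 and 10.49 in untreated KO arrays. Krt18 stood in the same arrays at 7.22 and 7.31, against 7.31 and 7.03 in untreated KO arrays. In WT mice at 2 weeks Krt18 stood at 9.44 and 8.17, against 7.45 and 7.29 in untreated WT arrays, and Krt8 at 11.09 and 10.49, against 10.20 and 10.09 in untreated WT arrays. Both WT groups at 2 weeks lay above their untreated arrays. In KO mice at 2 weeks Krt18 stood at 7.17 and 8.23 and Krt8 at 10.41 and 10.78, the first of each within the untreated KO range. At 6 days in WT mice Krt18 stood at 7.89 and 7.59 and Krt8 at 9.96 and 10.34. At 18 hours Krt18 stood at 7.75 and 7.49 in KO and 7.99 and 7.43 in WT arrays, and Krt8 at 10.47 and 10.32 in KO and 10.16 and 10.74 in WT arrays. Pooled over genotypes at 2 weeks, Krt18 differed from untreated by 0.98 ± 0.28 and Krt8 by 0.41 ± 0.18, with limma adjusted p of 0.0523 and 0.147. Without the first KO array at 2 weeks, which leaves 1 KO mouse there, the pooled differences of Krt20, Lcn2 and Krt18 were 2.37, 2.44 and 1.24.

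Sox9 was the member whose highest array was a KO array at 6 days. It stood there at 6.00 and 7.11, against 5.56 and 5.44 in untreated KO arrays, and at 2 weeks in KO at 5.31 and 5.87. In WT mice it stood at 5.63 and 5.98 at 6 days and 6.19 and 6.45 at 2 weeks, against 5.48 and 5.61 in untreated arrays. At 18 hours all 4 arrays lay within the range of the untreated ones, at 5.53 and 5.46 in KO and 5.47 and 5.45 in WT. The pooled difference from untreated was 0.66 ± 0.21 at 6 days and 0.43 ± 0.21 at 2 weeks, with limma adjusted p of 0.183 and 0.189. All 4 arrays at 6 days lay above all untreated arrays.

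Counted together, 3 of the 9 measured members (Havcr1, Vcam1 and Cd44) passed an adjusted p of 0.05 at 2 weeks over both genotypes, all higher, where 9.34% of all genes passed. The median difference of the 9 was 1.69, against 0.09 for all genes, and all 9 were above 0. At 6 days none passed, where 0.889% of all genes did. Of the 9, 5 had an unadjusted p under 0.05 at that time, as had 12.9% of all genes, all 9 were above 0, and their median was 0.84, against 0.01 for all genes. At 18 hours none passed and none had an unadjusted p under 0.05, with 0% of all genes called and 1266 genes at an unadjusted p under 0.05, and the members' median was 0.04 against 0.02. By the plainer count of arrays, 4 members (Vcam1, Krt20, Sox9 and Cd44) had all 4 arrays at 6 days above all 4 untreated arrays, as did 7.38% of all genes. At 2 weeks no member did, against 7.08% of all genes, as the first KO array lay under the highest untreated array in all 9, and at 18 hours no member did, against 3.04%. Between 6 days and 2 weeks no member passed, where 4.87% of all genes did. Havcr1 was 1.75 ± 1.0 higher at 2 weeks than at 6 days on average, with a limma adjusted p of 0.290. All 3 calls at 2 weeks were lost without any 1 of the 4 untreated arrays. Counts at 2 weeks, at 6 days and between these times also moved without a KO array at 2 weeks, which leaves 1 KO mouse there.

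**Figure D2:**
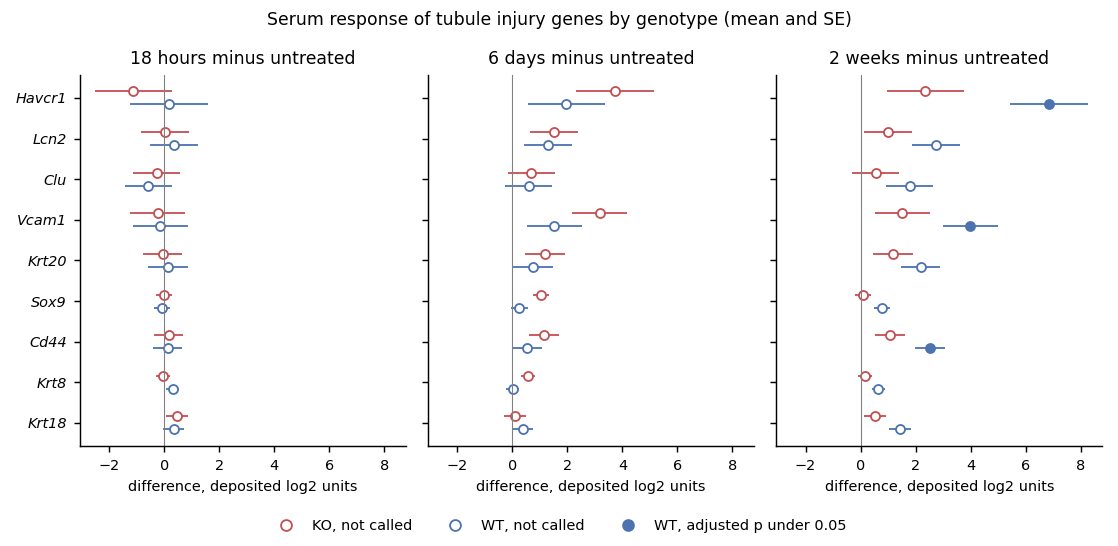
Difference from untreated, in deposited log2 units with standard errors from limma, of each measured member at 18 hours, 6 days and 2 weeks, KO beside WT. At 2 weeks Havcr1 differs by 2.36 in KO and 6.84 in WT, and at 6 days by 3.73 in KO and 1.96 in WT.

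Within KO mice, no member passed at any time. At 6 days, where 0.0133% of all genes passed, Havcr1 differed from untreated by 3.73 ± 1.41, Vcam1 by 3.17 ± 1.0 and Sox9 by 1.05 ± 0.30, with limma adjusted p of 0.538, 0.404 and 0.335. Both KO arrays at 6 days lay above both untreated KO arrays in 8 of the 9 members, all but Krt18, as in 23.3% of all genes. At 2 weeks, where 0.109% of all genes passed, Havcr1 differed by 2.36 ± 1.41 with a limma adjusted p of 0.682, and no member had both arrays above both untreated ones, against 19.8% of all genes. The 2 KO mice at 2 weeks were far apart. The first had 0 of the 9 members above the highest of the 4 untreated arrays and the second had all 9. The share of all genes was not counted for single arrays, so these counts are no result about the members alone. Leaving out either mouse leaves 1 KO mouse at that time, so only differences are given. Without the first, the KO difference at 2 weeks was 5.16 for Havcr1, 3.42 for Vcam1, 2.57 for Krt20 and 2.10 for Cd44. Without the second, Havcr1 differed from untreated by -0.45. At 18 hours 0% of all genes passed in KO, and 1216 genes had an unadjusted p under 0.05, with no member among the called.

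Within WT mice, both 2-week arrays lay above both untreated arrays in all 9 members, as in 39.1% of all genes. Havcr1 rose by 6.84 ± 1.41, Vcam1 by 4.00 ± 1.0 and Cd44 by 2.53 ± 0.54, with limma adjusted p of 0.0229, 0.0378 and 0.0247, so 3 of the 9 passed where 8.04% of all genes did. The other 6 were above 0 without passing, from 0.65 ± 0.25 for Krt8 to 2.73 ± 0.87 for Lcn2. The median of the 9 was 2.18, against 0.13 for all genes. The calls of Havcr1 and Cd44 were lost without either WT untreated array or without the second WT array at 2 weeks. That of Vcam1 was lost in 11 of 16 repeats. Without the 2 arrays that stood apart at 18 hours, none of the 3 passed, with adjusted p of 0.0510 for Havcr1, 0.0550 for Cd44 and 0.0708 for Vcam1 at the same differences. At 6 days no gene passed in WT (0% of all genes, with 2106 at an unadjusted p under 0.05). Both arrays then lay above both untreated ones in 8 of the 9 members, all but Krt8, as in 25.3% of all genes, and the members' median was 0.59. At 18 hours 0% of all genes passed in WT as well, with 1186 at an unadjusted p under 0.05.

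The genotypes were then set against each other, which is the question the knockout poses. Averaged over the 4 times, no member passed for KO against WT, and 0% of all genes passed, with 3514 at an unadjusted p under 0.05. The average of KO minus WT was 0.56 ± 0.71 for Havcr1 (limma adjusted p of 0.787) and -0.47 ± 0.20 for Krt18 (0.399). That of Havcr1 was -0.14 without the second KO array at 2 weeks and 1.26 without the first, so its direction rested on 1 mouse. It was 0.27 without the first WT array at 6 days, 0.86 without the second, and 0.30 without the second KO array at 6 days. Without the 2 arrays that stood apart at 18 hours it was 0.78, that of Clu was -1.11 where it had been -0.68, and no member passed in any of the 5 genotype comparisons. At 18 hours itself that fit held 1 mouse of each genotype, so its differences are those of single arrays. There KO minus WT was 1.13 for Havcr1, -1.91 for Clu and -0.93 for Vcam1, where all arrays gave 0.27, -0.18 and -0.19. It turned sign for Krt8, Cd44 and Lcn2. In untreated mice Havcr1 stood at 7.95 and 7.28 in KO, against 6.03 and 6.06 in WT. The difference of 1.57 ± 1.41 had a limma adjusted p of 0.999, and 0% of all genes passed, with 1564 at an unadjusted p under 0.05. At 18 hours, where 0% of all genes passed and 707 had an unadjusted p under 0.05, Havcr1 stood at 6.81 and 6.18 in KO and 5.68 and 6.78 in WT, and the second array of each group is the one whose Abcc3 ran against its label. At 6 days Havcr1 stood at 10.31 and 12.39 in KO, against 6.83 and 9.19 in WT. That difference of 3.34 ± 1.41, like those of 0.84 ± 0.25 for Krt8 and 0.75 ± 0.30 for Sox9, had an unadjusted p under 0.05, as had 4.83% of all genes. Without the second KO array at 6 days the difference was 2.30 for Havcr1 and 0.19 for Sox9, and without the first it was 4.38 and 1.31. Without the first WT array at 6 days Havcr1 differed by 2.16. None of the 3 passed after adjustment over all genes (limma adjusted p of 1, 0.919 and 0.988), where 0.00664% of all genes did.

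At 2 weeks all 9 members were on average lower in KO than in WT. None passed, where 0.182% of all genes did. Vcam1, Sox9, Cd44 and Krt18, 4 of the 9, had an unadjusted limma p under 0.05, as had 19.4% of all genes. The differences of KO minus WT ran from -0.19 ± 0.25 for Krt8 to -2.92 ± 1.41 for Havcr1, with limma adjusted p from 0.190 to 0.669 and a median of -1.37, against -0.06 for all genes. These averages join 2 unlike KO mice. Leaving out either leaves 1 KO mouse, so only differences are given. Without the second KO array, KO minus WT was -5.72 for Havcr1, -4.46 for Vcam1, -2.42 for Cd44, -2.09 for Krt20 and -1.63 for Krt18. Without the first KO array, the differences ran from -0.73 for Clu to 0.67 for Krt20, and Havcr1 differed by -0.12. The direction of the genotype difference in Krt20 thus turned with the array left out. That in Krt8 turned as well, to 0.11 without the first WT array at 2 weeks, where Lcn2, Clu and Krt18 differed by -0.13, -0.59 and -0.47. The difference between the genotypes in their response to serum was tested as well, and no member passed at 18 hours, 6 days or 2 weeks, where 0% of all genes passed at each, with 1108, 395 and 2244 genes at an unadjusted p under 0.05. For Havcr1 at 2 weeks this difference of responses was -4.49 ± 2.00 with a limma adjusted p of 0.664. Without the second KO array at 2 weeks it was -7.29, and that of Cd44 was -2.50. Without the first KO array at 2 weeks that of Havcr1 was -1.69.

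Markers of the other cells in the extract moved beside the members. The mean of the 18 measured proximal tubule markers lay at 15.19 and 13.59 in KO arrays at 2 weeks and at 12.69 and 13.93 in WT arrays at 2 weeks, against 15.19 to 15.71 in the 4 untreated arrays. The mouse in which no member stood above the untreated arrays thus also had the highest tubule marker mean of its time. At 6 days that mean ran from 14.63 to 15.27, and at 18 hours from 15.15 to 15.54. Of these 18 markers, 14 fell at 2 weeks over both genotypes, where 9.34% of all genes were called in either direction. All 18 differences were below 0, and their median was -1.80. Slc22a6, the organic anion transporter OAT1, differed by -2.50 ± 0.64, the glucose transporter gene Slc5a2 by -2.12 ± 0.58, and Pck1, an enzyme of glucose synthesis, by -2.07 ± 0.48, with limma adjusted p of 0.0376, 0.0453 and 0.0285. Ttc36, on the list as a gene of the proximal tubule, fell by 2.19 ± 0.55 with an adjusted p of 0.0361. The count of 14 was 18 without the first KO array at 2 weeks, and 4 without the 2 arrays that stood apart at 18 hours. It was 2 without the first WT untreated array, 0 without the second or without either KO untreated array, and 9 to 11, or 16, without any other single array.

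**Figure D3:**
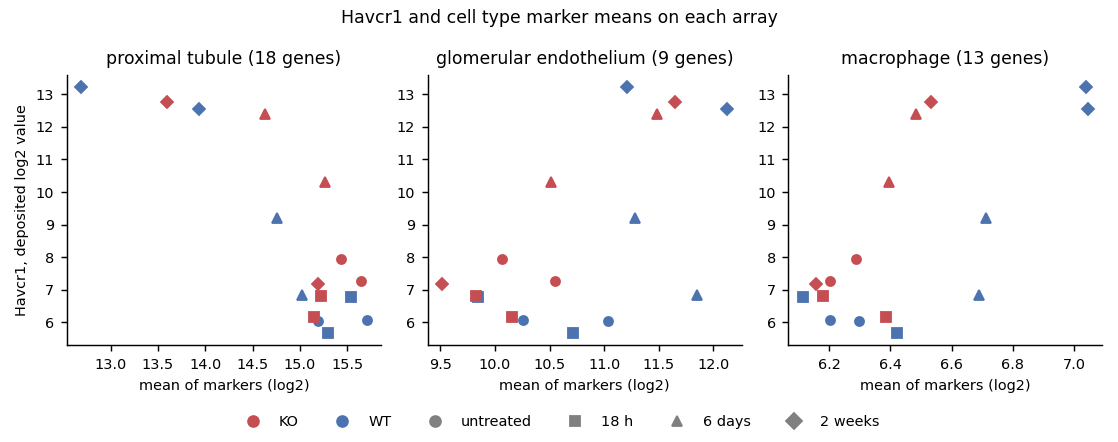
Deposited log2 value of Havcr1 on each array (vertical axis) against the mean log2 value of a list of cell markers on the same array (horizontal axis), 1 panel a list, with colour for genotype and symbol for time. In the proximal tubule panel the first KO mouse at 2 weeks lies with the untreated mice, at a marker mean of 15.19.

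Glomerular and immune markers were looked at in the same way. No marker of podocytes (7 of 10 measured), glomerular endothelium (9), mesangium (5 of 6) or parietal epithelium (6) passed at 6 days or 2 weeks over both genotypes. Their marker means still differed between the KO mice at 2 weeks, with podocyte means of 9.19 and 10.94 and endothelial means of 9.51 and 11.65. WT arrays at 2 weeks stood at 10.76 and 11.09 for podocytes and 11.21 and 12.13 for endothelium. Untreated arrays ran from 9.24 to 10.61 for podocytes and from 10.07 to 11.03 for endothelium. Of 13 macrophage markers 6 rose at 2 weeks, with a median difference of 0.54, where 9.34% of all genes were called in either direction. That count was 0 or 1 without any 1 untreated array, and 3 without the second array of either genotype at 2 weeks. The macrophage mean lay at 6.16 and 6.53 in KO and 7.04 and 7.05 in WT, against 6.20 to 6.30 in untreated arrays. None of 11 neutrophil markers passed at any time, with means of 5.21 to 5.42 at 2 weeks against 5.07 to 5.13 in untreated arrays. Of 12 markers of the thick limb, distal tubule and collecting duct, 2 fell at 2 weeks, near the 9.34% of all genes called. In WT at 2 weeks, where 8.04% of all genes were called, 8 of the 13 macrophage markers rose. So did 1 of the 6 parietal markers, Ncam1, by 1.0 ± 0.23 (limma adjusted p of 0.0315). For KO minus WT at 2 weeks, 2 macrophage markers and 1 parietal marker were called lower in KO, where 0.182% of all genes were called. The part of these cell types in the members' values was not tested.

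Other genes known from injured and repairing tubule were taken as a list of 37, also chosen with earlier results known, of which 32 were measured. At 2 weeks over both genotypes 10 rose and none fell, where 9.34% of all genes were called in either direction. Of the differences 31 were above 0, and the median was 1.19, beside 0.09 for all genes. Anxa3, an annexin that binds membranes where calcium is high, rose by 2.66 ± 0.73, and Il34, a growth factor for macrophages made by tubule cells, by 2.26 ± 0.40, with limma adjusted p of 0.0465 and 0.0154. Tnc, the matrix protein tenascin C, rose by 1.90 ± 0.39 and the monocyte attractant gene Ccl2 by 1.58 ± 0.24, with adjusted p of 0.0211 and 0.0113. At 6 days 6 of the 32 rose, with a median of 0.97, where 0.889% of all genes were called. At 18 hours none did, where 0% of all genes were called. Without the first KO array at 2 weeks the 2-week count was 23, without the 2 arrays that stood apart at 18 hours it was 5, without the first or second WT untreated array 5 and 1, without the first or second KO untreated array 2 and 0, and without the second WT array at 2 weeks 6. Of 14 ligands, receptors and partners of the members, 2 rose at 2 weeks, a share near the 9.34% of all genes called in either direction. Hmmr, another hyaluronan receptor that also acts at the mitotic spindle, rose by 1.30 ± 0.24, and Itgb3, an integrin chain that binds osteopontin, by 0.66 ± 0.14, with limma adjusted p of 0.0163 and 0.0241. The partners' median was 0.34, and their count was 5 without the first KO array at 2 weeks, 4 without the first WT array at 2 weeks, 3 without the second KO array at 2 weeks, 1 without the first WT untreated array or the second WT array at 2 weeks, and 0 without the second WT untreated or either KO untreated array.

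**Figure D4:**
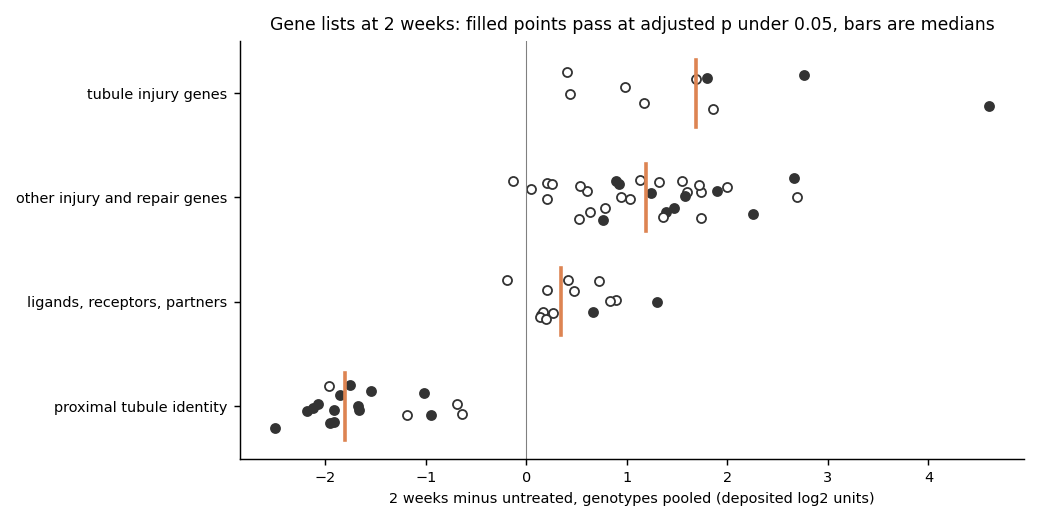
Difference at 2 weeks minus untreated over both genotypes, in deposited log2 units (horizontal axis), of every measured gene in 4 lists: the tubule injury genes, other injury and repair genes, their ligands, receptors and partners, and genes of proximal tubule identity. Each point is 1 gene, filled where its limma adjusted p is under 0.05, and bars are medians. All 9 members lie above 0 and all 18 proximal tubule markers lie below it.

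The 6 genes whose values followed Havcr1 most closely over the 16 arrays, by Pearson r as a description over arrays that share treatment and time, were Pole (0.970), Zwilch (0.970), Wdr62 (0.969), Wdhd1 (0.962), Rrm2 (0.962) and Diaph3 (0.959). Pole encodes the catalytic subunit of DNA polymerase epsilon, Wdhd1 a factor of replication start, and Rrm2 a subunit of the enzyme that makes deoxyribonucleotides. Zwilch acts at the kinetochore and Wdr62 at the spindle pole, and Diaph3, a formin, builds actin filaments. Pole stood at 5.48 and 6.99 in KO and 6.90 and 7.09 in WT arrays at 2 weeks, against 5.42 to 5.64 in untreated arrays, so the first KO mouse was low here too. All 6 were called higher at 2 weeks over both genotypes, by 0.48 ± 0.11 for Wdr62 up to 1.27 ± 0.20 for Diaph3, with limma adjusted p between 0.0123 and 0.0396. Over the 16 repeats that leave out 1 array, the call of Diaph3 was lost only without the second KO untreated array (adjusted p of 0.0686), those of Zwilch, Pole, Rrm2 and Wdr62 without any 1 untreated array, the last 3 also without the second WT array at 2 weeks, and that of Wdhd1 in all but the repeats without 1 of the KO arrays at 2 weeks. The highest adjusted p was 0.136, for Wdhd1. With quantile normalization the call of Diaph3 held and the other 5 were lost, at adjusted p from 0.0560 to 0.145, and Wdr62 differed by 0.30. The same 5 were lost without the 2 arrays that stood apart at 18 hours, at adjusted p from 0.0511 to 0.0768, and all 6 with only the groups compared in the fit, at 0.106 to 0.160. These calls share arrays with that of Havcr1 and are no separate support for it. Among the members, r with Havcr1 was 0.941 for Krt20, 0.933 for Vcam1, 0.921 for Cd44, 0.890 for Lcn2, 0.812 for Sox9, 0.753 for Krt8, 0.656 for Clu and 0.533 for Krt18. Without the 2 arrays that stood apart at 18 hours, r ran from 0.956 to 0.968 for the 6 genes and from 0.521 to 0.936 for the members. In the order of all 30141 other genes these stand at rank 19 for Krt20 and 4048 for Krt18.

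**Figure D5:**
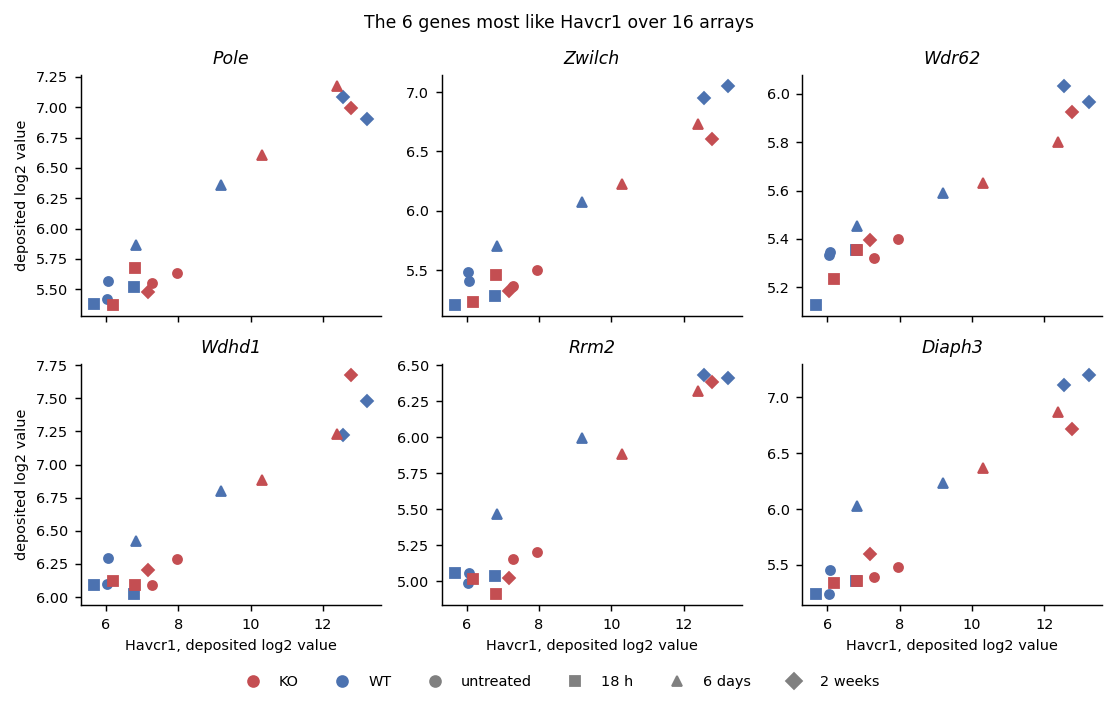
Deposited log2 values over the 16 arrays of the 6 genes most alike to Havcr1 (vertical axes) against the Havcr1 value of the same array (horizontal axis), with colour for genotype and symbol for time. The Pearson r runs from 0.959 for Diaph3 to 0.970 for Pole.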

How the data were processed

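Glomerular extracts of 16 mice were measured on 16 Affymetrix arrays, from 10 ng of RNA each, per the labels' protocols. The authors deposited a table of log2 values for 72688 probesets. The tools named in the submitters' processing notes are Affymetrix Expression Console and Transcriptome Analysis Console. No version, summarisation method or genome build is stated there or in the labels. Depth has no counterpart on arrays, and the 2 arrays per group limit the precision. Whether replicates came from separate experiments is not stated.

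Probesets annotated to 1 symbol were kept (30604), those with several (2146) or none (39938) were left out, and 827 symbols were updated. For 355 genes with more than 1 probeset, the brightest on average stood for the gene, so that 30142 genes were tested, with no filter on brightness. The 8 group means were fitted per gene to all 16 arrays in limma 3.58.1 (R 4.3.3), with 8 residual degrees of freedom and an intensity trend. P-values of each of the 18 comparisons were adjusted by Benjamini-Hochberg across all genes, and called means an adjusted p under 0.05. SE is that of the fit. The procedure was tested on simulated data.

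The members and all lists were chosen with earlier results of these data known. All members are named, up to 4 called genes per list with the largest differences at 2 weeks, and the 6 genes with the highest correlation with Havcr1, numbered transcripts, pseudogenes and small RNAs left out. For the marker lists, counts and means are given. Genes named in other observations were chosen after their values were seen. Alternatives left out dim genes, used quantile normalization, no intensity trend, only the groups compared, a replicate block, or the mean of a gene's probesets, or left out each array in turn. Those without the arrays that stood apart were chosen after seeing the data.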

Additional observations from a re-analysis of the deposited data

How the results depend on the processing

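No member reversed a call under any alternative. Quantile normalization and a fit with no intensity trend left all 162 calls of single members on their side of the threshold. Quantile normalization ended the calls of 5 of the 6 genes most like Havcr1. The mean of a gene's probesets left the members' calls the same too, but each member has 1 probeset, so its values could not change. With dim genes left out, 6 of the 9 members remained, without Lcn2, Krt20 and Sox9, and Krt18 passed as well at 2 weeks (limma adjusted p of 0.0388 over both genotypes). With only the groups compared in the fit, 2 members passed at 6 days over both genotypes and 0 at 2 weeks, where fewer arrays estimate the spread. Without both arrays that stood apart at 18 hours, 1 member passed at 2 weeks over both genotypes and 0 in WT. Without these and the first KO array at 2 weeks, 2 passed at 6 days and 7 at 2 weeks over both genotypes, 4 in KO and 5 in WT at 2 weeks, and 4 between 6 days and 2 weeks. The cause of these shifts was not tested.

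With 1 array left out in turn, the number of members called over both genotypes was 0 to 0 at 18 hours, 0 to 2 at 6 days and 0 to 6 at 2 weeks. It was 0 to 0, 0 to 1 and 0 to 4 in KO, and 0 to 0, 0 to 0 and 0 to 6 in WT. Between 6 days and 2 weeks it was 0 to 4. For KO against WT it was 0 to 5 at 2 weeks and 0 to 0 otherwise, and for the difference of responses 0 to 2 at 2 weeks and 0 to 0 otherwise. A lone array of a group was then assumed to vary like the other groups. The share of all genes called is not given for these fits, so their counts are not set against it. Calls of genes outside the members moved in these fits too, so the counts are no result about the members alone.

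The number of all genes called at 2 weeks over both genotypes, 2815 in the fit of 16 arrays, was 1568 with quantile normalization, 3 with only the groups compared and 1234 without both arrays that stood apart at 18 hours. At 6 days it was 268, and 119, 1139 and 32 under the same settings. In WT at 2 weeks it was 2424, and 1214, 619 and 859. For the average of KO minus WT it was 0, and 519 without both arrays that stood apart at 18 hours. Those arrays were chosen because their Abcc3 ran against their genotype label, so that rise is no independent evidence of a genotype difference.

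Same-numbered arrays were not shown to be paired, since their deviations correlated between -0.679 and 0.593 over 28 pairs of groups (median 0.0402). With the replicate number as a block, Krt20 passed too at 2 weeks over both genotypes, so 4 members were called, and no other call of a member changed. The share of all genes called in that fit is not given, so this count is not set against it.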

Other observations

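Among the other injury and repair genes, 6 passed at 6 days over both genotypes, where 0.889% of all genes did. The 3 fibrinogen chain genes passed at 6 days, Fgg at 5.54 ± 0.97, Fga at 3.04 ± 0.50 and Fgb at 2.78 ± 0.51, with limma adjusted p of 0.0339, 0.0304 and 0.0388. The intermediate filament gene Vim rose by 3.54 ± 0.57, the annexin gene Anxa1 by 2.57 ± 0.52 and Tnc by 1.98 ± 0.39, with adjusted p of 0.0279, 0.0491 and 0.0458. Without any 1 of the 4 untreated arrays, or without the second array of either genotype at 6 days, none of the 32 passed at 6 days. Without either KO array at 2 weeks 14 did, and without both arrays that stood apart at 18 hours none did. Of the distal markers, Egf, which encodes epidermal growth factor, differed by -2.65 ± 0.68 at 2 weeks over both genotypes and Pvalb, of the distal convoluted tubule, by -1.43 ± 0.31, with limma adjusted p of 0.0385 and 0.0241.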
